A study of Mus musculus with 6 samples.

Results

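The ion channel genes described here are the mouse potassium, sodium, calcium, chloride, TRP and Piezo channel genes. They were taken as the protein-coding genes whose symbol begins with Kcn, Cacn or Clcn, or with Scn, Trpa, Trpc, Trpm, Trpv or Piezo followed by a digit. The rule reads names and no measured value, and it found 169 of the 48440 genes in the count table. Of these, 123 had at least 1 count in at least 1 library, and 43 passed the filter on low counts and were among the 14811 genes tested. Of the 169, 130 encode pore-forming subunits and 36 encode auxiliary subunits. The other 3 carry a channel's name without being channel subunits, and only Trpc4ap of them was tested.

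Channels are membrane proteins with a pore that lets ions run down their gradients. Voltage-gated channels open when the membrane depolarises, Piezo channels open when the membrane is stretched, and many TRP channels respond to chemicals, temperature or intracellular calcium. The CLC family holds both chloride channels of the cell surface and chloride-proton exchangers of endosomes and lysosomes. Auxiliary subunits carry no current of their own and set the trafficking and gating of the pore. Epithelial cells use potassium, chloride and calcium channels for volume control, acidification of vesicles, adhesion and migration, whereas most voltage-gated sodium channels are known from nerve and muscle.

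The study asked how deletion of the Hippo pathway kinases Lats1 and Lats2 changes transcription in the epithelium that covers the surface of the mouse ovary. Ad-Cre-GFP cells (3 libraries, genotype given as Lats1/2 knockout) had received an adenovirus encoding Cre recombinase and GFP. Ad-GFP cells (3 libraries, genotype given as WT) had received an adenovirus encoding GFP, so that virus and GFP are shared and Cre is present in the Ad-Cre-GFP cells alone. Poly(A) RNA was sequenced 7 days after transduction. The sources used here give neither the promoter that drives Cre nor whether the replicates came from separate cultures or animals, so p-values measure the spread between these libraries, which may be technical.

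Library totals were 27734527 to 30304033 counts for Ad-Cre-GFP and 18690235 to 25363462 counts for Ad-GFP. Levels are given as CPM (counts per 1e+06 counts of a library, scaled by TMM), as TPM (counts per exon length, scaled to a sum of 1e+06) where genes are compared with one another, or as raw counts near the detection limit. The exon length is the union of all annotated exons of a gene, which no single transcript need have, so comparisons between genes in TPM are approximate. A total of 3 counts, the limit that a count of 0 allows, was 0.100 to 0.109 CPM in the Ad-Cre-GFP libraries and 0.117 to 0.159 CPM in the Ad-GFP libraries. Of the targeted genes, Lats1 averaged 37.1 CPM in Ad-Cre-GFP and 159 CPM in Ad-GFP (log2 fold change -2.10 ± 0.04, SE), and Lats2 averaged 98.7 CPM in Ad-Cre-GFP and 130 CPM in Ad-GFP (-0.39 ± 0.03), edgeR adjusted p = 5.79e-20 and 3.82e-10. The fall of Lats2 is modest, and the sources used here do not say which exons were deleted, so counts over the whole gene may not show the deletion. All 14 listed markers of the ovarian surface epithelium, keratins and mesothelial genes among them, were tested. Their summed level was 4916 to 4962 CPM in Ad-Cre-GFP and 4740 to 4792 CPM in Ad-GFP, while 6 of them rose, 6 fell and 2 were not called. That is 85.7% called, against 69.8% of all tested genes. At least 2-fold higher were 4 (28.6%, against 6.25% of all tested genes) and at least 2-fold lower were 3 (21.4%, against 7.56%). The similar sum therefore does not mean that the single markers were stable. In bulk RNA, fewer cells of a type and less RNA per cell cannot be told apart in any result that follows.

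Channel transcripts were a small fraction of the RNA and their total was similar between the groups, while single channels differed. The channel genes held 0.151 to 0.154% of counts in Ad-Cre-GFP libraries and 0.155 to 0.159% in Ad-GFP libraries. Their summed level was 449 ± 5.57 TPM in Ad-Cre-GFP and 463 ± 7.01 TPM in Ad-GFP (SD, n = 3 each). Of the 43 tested channel genes, 16 were higher in Ad-Cre-GFP (37.2%, against 34.0% of all tested genes), 15 were lower (34.9%, against 35.8%) and 12 were not called at an edgeR adjusted p of 0.05. In all, 72.1% of them were called, close to the 69.8% of all tested genes. The 2 groups of libraries did not overlap for 33 of the 43 (76.7%, against 73.0% of all tested genes). Being called was therefore near the background of these data.

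Past a 2-fold change, 11 tested channel genes were higher in Ad-Cre-GFP (25.6%, against 6.25% of all tested genes) and 5 were lower (11.6%, against 7.56%). Of those, 8 of the 11 and 3 of the 5 passed the low-count filter, about 0.377 CPM in 3 libraries, through one group alone, a choice that favours a difference. They are Kcnf1, Kcnj4, Kcnj14, Kcnk2, Scn2a, Scn3a, Cacna1a and Cacnb4 among the higher ones and Trpv6, Kcnh3 and Kcne3 among the lower ones. Among the 30 channel genes over that limit in every library, 3 were at least 2-fold higher in Ad-Cre-GFP, Piezo1 and Trpm5 among them, and Clcn3 and Cacnb1 at least 2-fold lower. The 13523 genes of the whole table over the limit in every library had 4.49% at least 2-fold higher and 5.98% at least 2-fold lower, against 3 and 2 of these 30. The 1288 tested genes not over the limit in every library had 24.8% at least 2-fold higher and 24.1% at least 2-fold lower. Among the 13 channel genes of that kind, 8 were at least 2-fold higher (61.5%) and 3 at least 2-fold lower (23.1%). Of these 13, 9 passed the filter through Ad-Cre-GFP alone and 4 through Ad-GFP alone, which favours the direction of the passing group. The shares of the 1288 genes were not split by passing group, so they cannot show whether channel genes differ from them in direction. The median log2 fold change was -0.05 over the tested channel genes and -0.01 over all tested genes.

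**Figure D1:**
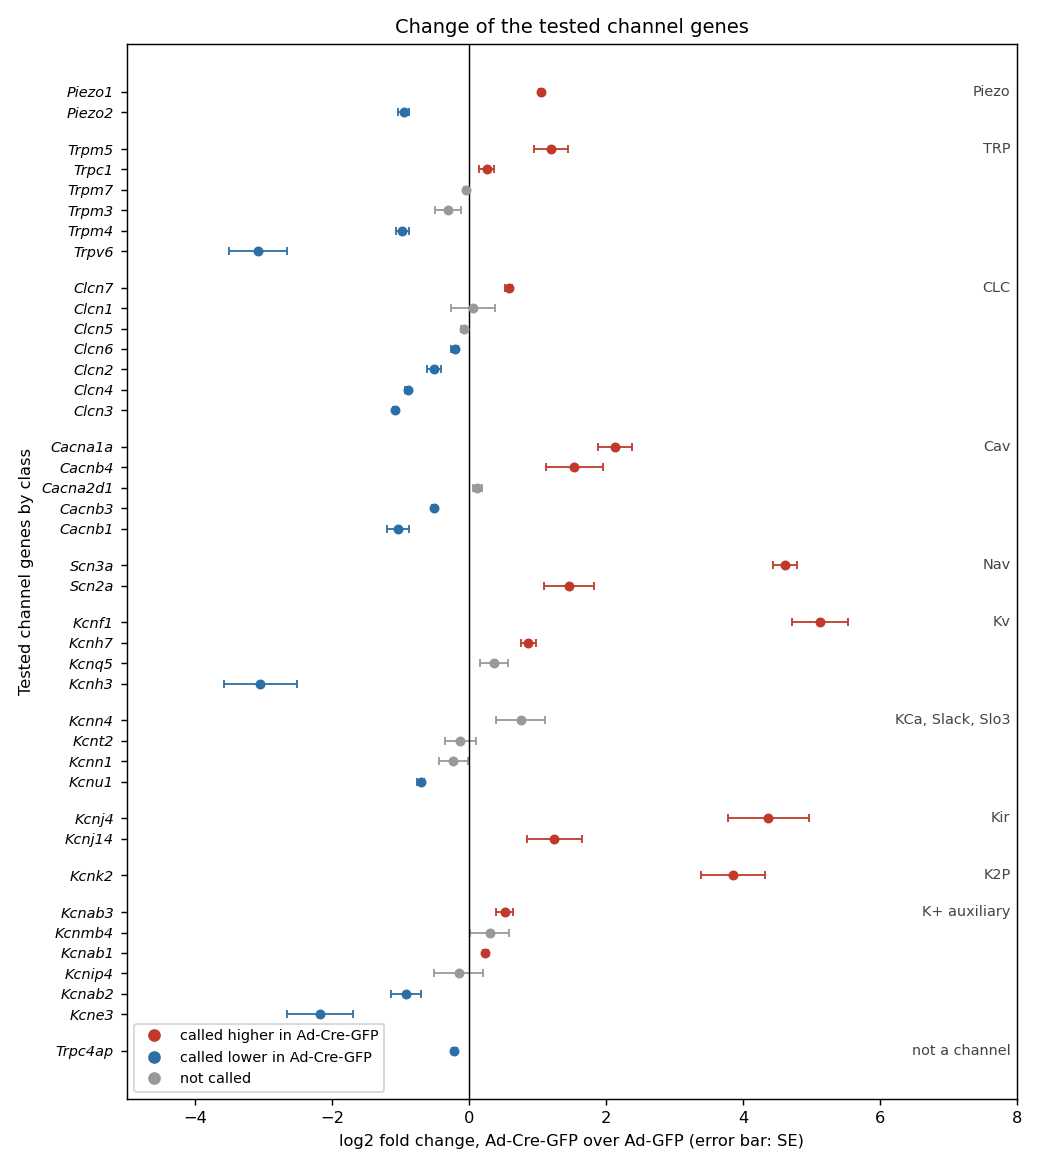
The log2 fold change of 40 of the 43 tested channel genes (x axis, Ad-Cre-GFP over Ad-GFP, bars are the SE of the edgeR fit), grouped by class along the y axis and coloured by call. Within most classes some genes lie right of 0 and others left, from 5.13 for Kcnf1 to -3.08 for Trpv6.

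**Figure D2:**
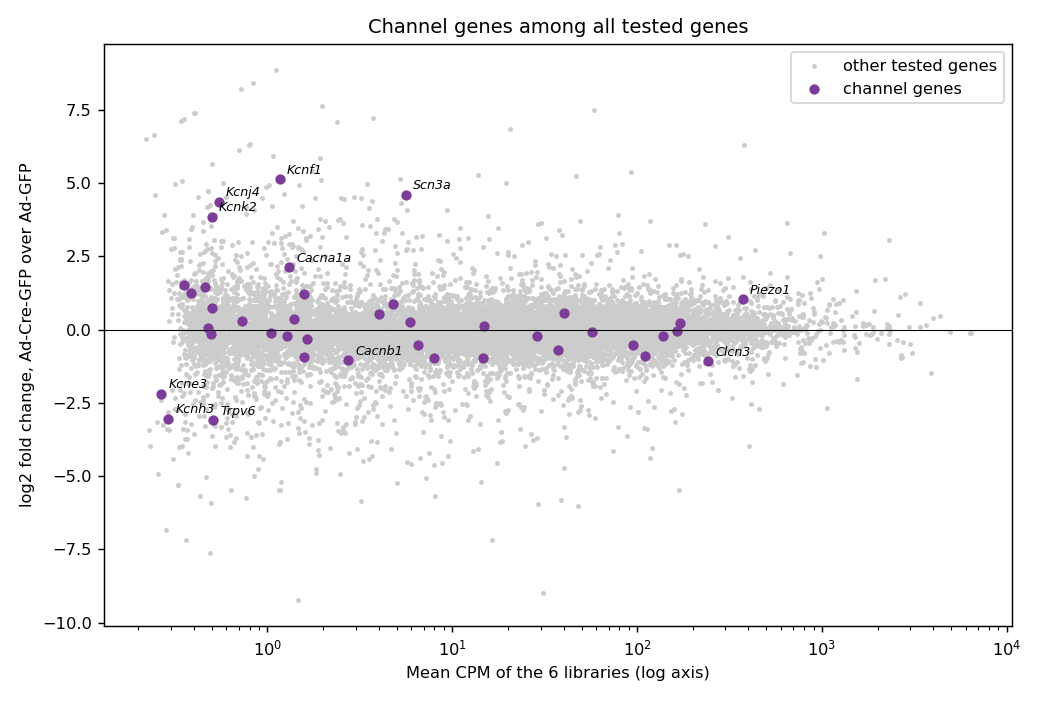
Log2 fold change (y axis, Ad-Cre-GFP over Ad-GFP) against mean CPM of the 6 libraries (x axis, log scale) for 40 of the 43 tested channel genes and for other tested genes. The far-moved channel genes lie mostly at low CPM, and Piezo1 and Clcn3 are the abundant ones past a 2-fold change.

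A few genes made up most of the channel transcripts. Over the 6 libraries 11 channel genes averaged 10 TPM or more and 21 averaged 1 TPM or more. The top 5 held 62.3% and the top 10 held 90.2% of the summed level. These shares include Trpc4ap, which is not a channel subunit and averaged 40.4 TPM, and auxiliary subunits such as Cacnb3 and Kcnab1. The highest was Piezo1, followed by Cacnb3, Kcnab1, Trpc4ap, Trpm7, Clcn3, Clcn4, Kcnu1 and Clcn7. None of the 9 highest was a pore subunit of the Kv, Nav, Cav or inward rectifier families, and Piezo1, Trpm7, Kcnu1 and the CLC genes were the pore or exchanger genes at high level.

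**Figure D3:**
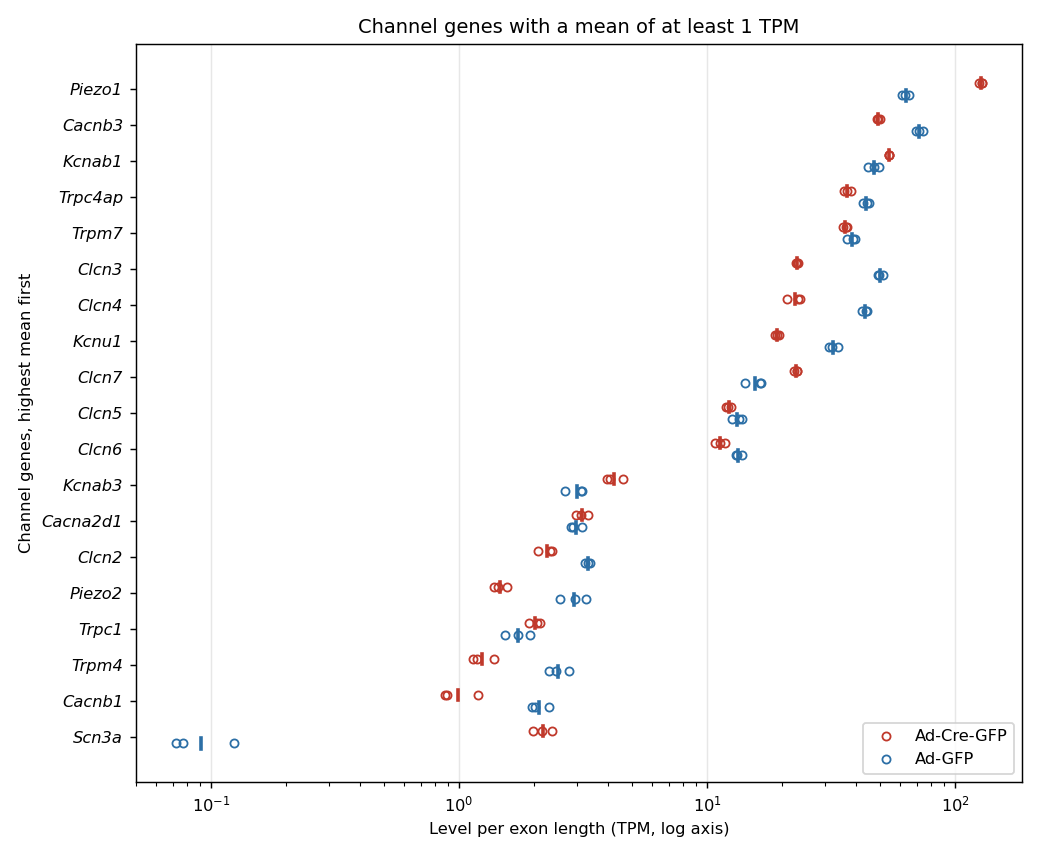
Level of 19 of the 21 channel genes with a mean of at least 1 TPM (x axis, TPM per library on a log scale, open circles with the group mean as a tick), highest mean at the top. Piezo1 stands at 127 TPM in Ad-Cre-GFP and 63.2 TPM in Ad-GFP, and the Scn3a groups are the farthest apart.

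The stretch-gated Piezo channels moved in opposite directions. Piezo1, a large mechanically gated cation channel (chr8:122481698-122551329, minus strand, GRCm38), had 505, 506 and 492 CPM in the Ad-Cre-GFP libraries and 249, 245 and 235 CPM in the Ad-GFP libraries. Every Ad-Cre-GFP library stood about 2-fold above every Ad-GFP library, with little spread inside either group. The means were 501 ± 7.59 CPM in Ad-Cre-GFP and 243 ± 7.26 CPM in Ad-GFP (SD, n = 3 each), a 2.06-fold higher level (log2 fold change 1.04 ± 0.03, edgeR adjusted p = 8.63e-18). Ctu2, which overlaps Piezo1 exons on the other strand, averaged 27.4 CPM in Ad-Cre-GFP and 25.9 CPM in Ad-GFP and was not called (0.08 ± 0.05, edgeR adjusted p = 0.218).

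Piezo2, the relative best known from touch-sensing neurons (chr18:63010213-63387183, minus strand), had 10.6, 9.77 and 9.45 CPM in Ad-Cre-GFP libraries and 19.4, 17.2 and 21.6 CPM in Ad-GFP libraries. All Ad-Cre-GFP values were below all Ad-GFP values (log2 fold change -0.95 ± 0.08, edgeR adjusted p = 1.16e-09). Per exon length Piezo2 was far the lower of the pair, at 1.46 TPM in Ad-Cre-GFP and 2.92 TPM in Ad-GFP. Piezo1 therefore made up 98.9 ± 0.0543% of the Piezo level in Ad-Cre-GFP and 95.6 ± 0.582% in Ad-GFP. The summed Piezo level was 129 ± 2.45 TPM in Ad-Cre-GFP and 66.1 ± 1.93 TPM in Ad-GFP, the highest of any channel class in the Ad-Cre-GFP cells.

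**Figure D4:**
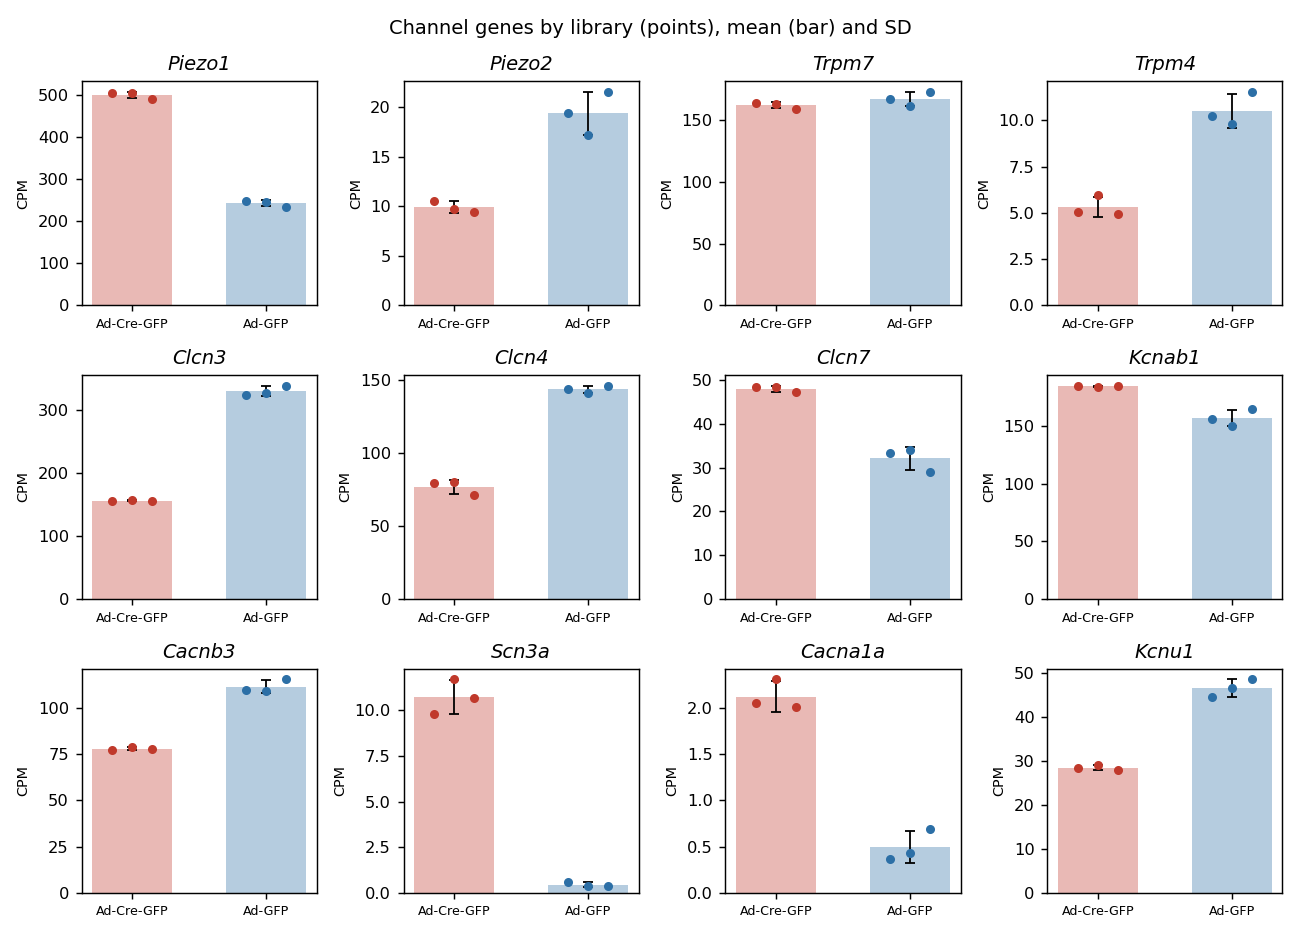
CPM of 12 channel genes in each library (points), with the group mean (bar, from 0) and SD. Piezo1, Clcn7, Kcnab1, Scn3a and Cacna1a are higher in Ad-Cre-GFP, Piezo2, Trpm4, Clcn3, Clcn4, Cacnb3 and Kcnu1 are lower, and of these 12 genes only Trpm7 has groups that overlap.

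All 7 detected CLC genes were tested, and the endosomal and lysosomal members went different ways. Of them, 4 were lower in Ad-Cre-GFP (Clcn2, Clcn3, Clcn4 and Clcn6), Clcn7 was higher, and Clcn1 and Clcn5 were not called. That is 71.4% called, against 69.8% of all tested genes. The summed CLC level was 94.6 ± 2.24 TPM in Ad-Cre-GFP and 139 ± 1.37 TPM in Ad-GFP. The RefSeq promoter windows (GRCm38.p6, 250 bases before to 50 after the annotated start, 300 bases each) of 4 of these exchangers are shown because the genes changed and sit in one pathway, the acidification of endosomes and lysosomes. Capitals mark CATTCC or its reverse complement GGAATG (the core bound by TEAD factors, through which the Hippo pathway acts) and TCACGTG or its reverse complement CACGTGA (the core of the CLEAR element of lysosomal genes), searched on both strands. The CLEAR core was searched only after the Clcn7 window had been read. Clcn3 and Clcn4 have a further RefSeq window each, as does Clcn7, with none of these letters.
Clcn7 (chr17:25133141-25133440, plus strand): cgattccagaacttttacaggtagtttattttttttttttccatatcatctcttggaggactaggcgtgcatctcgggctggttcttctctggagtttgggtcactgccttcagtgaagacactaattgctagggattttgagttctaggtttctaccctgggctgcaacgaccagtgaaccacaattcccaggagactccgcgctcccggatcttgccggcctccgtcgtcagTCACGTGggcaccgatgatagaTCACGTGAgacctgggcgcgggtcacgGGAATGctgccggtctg
Clcn6 (chr4:148038764-148039063, minus strand): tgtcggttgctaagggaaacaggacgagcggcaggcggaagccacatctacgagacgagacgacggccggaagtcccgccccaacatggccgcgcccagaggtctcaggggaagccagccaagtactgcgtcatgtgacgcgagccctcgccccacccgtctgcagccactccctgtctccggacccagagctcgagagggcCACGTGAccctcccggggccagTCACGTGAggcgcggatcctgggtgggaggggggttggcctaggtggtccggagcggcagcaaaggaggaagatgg
Clcn4 (chr7:7299508-7299807, minus strand): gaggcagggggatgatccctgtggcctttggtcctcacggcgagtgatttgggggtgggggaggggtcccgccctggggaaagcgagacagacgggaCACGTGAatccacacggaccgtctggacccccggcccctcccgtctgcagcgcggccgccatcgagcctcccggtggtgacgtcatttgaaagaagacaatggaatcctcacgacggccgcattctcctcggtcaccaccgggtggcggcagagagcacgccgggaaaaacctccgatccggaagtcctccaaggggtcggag
Clcn3 (chr8:60983262-60983561, minus strand): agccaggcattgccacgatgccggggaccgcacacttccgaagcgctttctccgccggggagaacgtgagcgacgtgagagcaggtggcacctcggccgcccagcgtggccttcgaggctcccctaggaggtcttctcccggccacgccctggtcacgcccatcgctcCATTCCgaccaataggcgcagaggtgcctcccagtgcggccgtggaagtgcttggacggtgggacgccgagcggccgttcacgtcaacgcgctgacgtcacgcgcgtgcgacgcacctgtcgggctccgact

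The Clcn7 window holds the TEAD letters 33 bases after the start and the CLEAR letters at 2 places, and the Clcn6 window holds the CLEAR letters at 2 places as well. In both, one of the places reads the same core on either strand, so the 2 matches overlap there. The Clcn4 window has the CLEAR letters once and the Clcn3 window has the TEAD letters once, 82 bases before the start. Over all 32851 RefSeq windows, 14.66% hold the TEAD letters and 3.77% hold the CLEAR letters. Over the 172 windows of channel genes, 17.44% hold the TEAD letters and 3.49% hold the CLEAR letters, close to the share of all windows. Over the windows of the tested channel genes, the TEAD letters were in 3 of 20 for genes higher in Ad-Cre-GFP, 2 of 17 for genes lower and 1 of 16 for genes not called. The CLEAR letters were in 2 of 20, 2 of 17 and 1 of 16 of these windows, Kcnab1 and Trpm7 among them. The letters TGANTCA of AP-1 were in 7.81% of all windows and 3.49% of the 172 windows of channel genes. Such matches describe letters in a window and not bound sites, and they do not separate the CLC genes by direction: CLEAR letters occur in front of Clcn7, which rose, and of Clcn6 and Clcn4, which fell.

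Clcn3, a chloride-proton exchanger of endosomes and synaptic vesicles, had 156, 158 and 155 CPM in Ad-Cre-GFP libraries and 323, 327 and 338 CPM in Ad-GFP libraries. The groups lie far apart beside their spread, with all Ad-Cre-GFP libraries low (log2 fold change -1.08 ± 0.03, edgeR adjusted p = 4e-18). Clcn4, its close relative in endosomes (chr7:7282309-7300851, minus strand), had 79.2, 80.2 and 71.5 CPM in Ad-Cre-GFP and 144, 141 and 146 CPM in Ad-GFP. Again no library of one group reached the other (-0.90 ± 0.04, edgeR adjusted p = 1.37e-14).

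Clcn7, the exchanger of the lysosome membrane, ran the other way. It had 48.4, 48.4 and 47.2 CPM in Ad-Cre-GFP libraries and 33.2, 34.0 and 29.0 CPM in Ad-GFP libraries, without overlap (log2 fold change 0.58 ± 0.05, edgeR adjusted p = 1.78e-09). Ostm1, its partner subunit in lysosomes, averaged 87.3 ± 2.90 CPM in Ad-Cre-GFP and 74.8 ± 1.47 CPM in Ad-GFP and also rose (0.22 ± 0.04, edgeR adjusted p = 1.27e-05). As a share of the summed CLC level in TPM, Clcn7 was 24.2 ± 0.194% in Ad-Cre-GFP and 11.3 ± 0.991% in Ad-GFP. Clcn3 made up 24.4 ± 0.458% of that level in Ad-Cre-GFP and 35.9 ± 0.731% in Ad-GFP. Per exon length, Clcn3, Clcn4 and Clcn7 stood within a narrow band in Ad-Cre-GFP cells, at 23.1, 22.6 and 22.9 TPM, whereas they were 49.9, 43.3 and 15.7 TPM in Ad-GFP cells. That band and these shares depend on the exon lengths used, 17071, 8575 and 5291 bases. In CPM the 3 genes averaged 156, 77.0 and 48.0 in Ad-Cre-GFP.

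Smaller changes were seen in the remaining CLC genes. Clcn2, a chloride channel of the cell surface, had 5.64, 4.95 and 5.58 CPM in Ad-Cre-GFP and 7.66, 7.94 and 7.47 CPM in Ad-GFP (log2 fold change -0.52 ± 0.10, edgeR adjusted p = 8.43e-05). Some of its exon sequence lies opposite the more abundant Polr2h. Clcn6, a late endosomal exchanger, averaged 26.5 CPM in Ad-Cre-GFP and 30.7 CPM in Ad-GFP (-0.21 ± 0.05, edgeR adjusted p = 0.00132). Clcn5, an endosomal exchanger needed for protein uptake in the kidney, averaged 55.4 CPM in Ad-Cre-GFP and 58.7 CPM in Ad-GFP and missed the threshold (-0.08 ± 0.04, edgeR adjusted p = 0.0866). That call changes with the scaling, since with upper-quartile scaling the edgeR adjusted p is 0.0494. Clcn1, the skeletal muscle channel, averaged 0.485 CPM in Ad-Cre-GFP and 0.465 CPM in Ad-GFP (0.06 ± 0.32, edgeR adjusted p = 0.893), and part of its exons lies opposite Fam131b, which rose (2.71 ± 0.15).

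Among TRP channels, one gene made up nearly all of the level and was not called, and the changes lay in the low-level members. Of 22 genes, 17 had a count and 6 were tested, with 2 higher in Ad-Cre-GFP, 2 lower and 2 not called. That is 66.7% called, against 69.8% of all tested genes. Trpm7, a magnesium- and zinc-permeable channel joined to a kinase domain (chr2:126791565-126876230, minus strand), had 164, 163 and 159 CPM in Ad-Cre-GFP and 168, 162 and 173 CPM in Ad-GFP. The groups overlap (log2 fold change -0.05 ± 0.03, edgeR adjusted p = 0.207). It averaged 36.2 TPM in Ad-Cre-GFP and 38.3 TPM in Ad-GFP, within a TRPM family of which it held 93.9% in Ad-Cre-GFP and 92.4% in Ad-GFP.

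Trpm4 and Trpm5 are calcium-activated channels for monovalent cations, and they went opposite ways. Trpm4 (chr7:45302632-45333780, minus strand) had 5.06, 5.96 and 4.93 CPM in Ad-Cre-GFP and 10.3, 9.78 and 11.6 CPM in Ad-GFP, without overlap and with all Ad-Cre-GFP libraries low (log2 fold change -0.98 ± 0.10, edgeR adjusted p = 1.45e-08). Trpm5, known from taste cells (chr7:143069153-143094642, minus strand), had 2.12, 1.67 and 2.88 CPM in Ad-Cre-GFP and 1.05, 1.13 and 0.636 CPM in Ad-GFP, also without overlap (1.20 ± 0.25, edgeR adjusted p = 0.000207). Part of its exon sequence lies opposite Tssc4, which averaged 29.8 CPM in Ad-Cre-GFP and 22.9 CPM in Ad-GFP (0.38 ± 0.05, edgeR adjusted p = 2.65e-06). The sources used here do not say whether counting used the strand, so reads of such a pair cannot be told apart.

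Trpc1, a TRPC subunit that joins other subunits in cation channels, had 6.05, 6.76 and 6.61 CPM in Ad-Cre-GFP and 5.97, 5.44 and 4.77 CPM in Ad-GFP. Its groups do not overlap but nearly touch, and its call (log2 fold change 0.26 ± 0.11, edgeR adjusted p = 0.0392) did not survive DESeq2, nor the removal of any one of Ad-Cre-GFP replicates 2 and 3 and Ad-GFP replicates 2 and 3 (adjusted p 0.0673 to 0.155). Trpm3, a heat- and steroid-activated channel, averaged 1.47 CPM in Ad-Cre-GFP and 1.81 CPM in Ad-GFP (-0.31 ± 0.19, edgeR adjusted p = 0.159). Trpv6, an epithelial calcium uptake channel, had 2, 3 and 4 counts in Ad-Cre-GFP libraries and 13, 29 and 19 counts in the shallower Ad-GFP libraries. Scaled for depth, that is 8.84-fold lower in Ad-Cre-GFP, with a 95% exact binomial interval for counting error of 4.36 to 20.2 (log2 fold change -3.08 ± 0.43, edgeR adjusted p = 1.36e-06). Of the TRPV channels for osmotic and mechanical stimuli, Trpv2 had 8 counts in all in Ad-Cre-GFP and 4 in Ad-GFP, and Trpv4 had 3 in Ad-Cre-GFP and 0 in Ad-GFP. Trpa1, Trpc4 and Trpc6 had none in any library.

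Voltage-gated calcium channel genes were represented mostly by an auxiliary subunit. Of 26 genes, 19 had a count and 5 were tested, with 2 higher in Ad-Cre-GFP, 2 lower and 1 not called. That is 80% called, against 69.8% of all tested genes. The higher ones, Cacna1a and Cacnb4, passed the low-count filter through Ad-Cre-GFP alone. Cacnb3, a beta subunit that brings the pore to the membrane (chr15:98630840-98644529, plus strand), had 77.0, 78.7 and 77.9 CPM in Ad-Cre-GFP and 110, 109 and 115 CPM in Ad-GFP. No library of one group reached the other (log2 fold change -0.51 ± 0.03, edgeR adjusted p = 1.16e-11). It was 49.0 TPM in Ad-Cre-GFP and 71.8 TPM in Ad-GFP, while all 10 calcium channel pore genes together summed to 0.520 ± 0.0373 TPM in Ad-Cre-GFP and 0.157 ± 0.0246 TPM in Ad-GFP.

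The one pore gene tested was Cacna1a, the P/Q-type channel of nerve endings (chr8:84388440-84640246, plus strand). It had 2.05, 2.31 and 2.01 CPM in Ad-Cre-GFP and 0.365, 0.430 and 0.689 CPM in Ad-GFP, and all Ad-Cre-GFP libraries were the higher (log2 fold change 2.13 ± 0.25, edgeR adjusted p = 1.01e-07). Of the other beta subunits, Cacnb1 had 1.57, 2.14 and 1.61 CPM in Ad-Cre-GFP and 3.42, 3.60 and 4.03 CPM in Ad-GFP (-1.04 ± 0.16, edgeR adjusted p = 5.45e-06). Cacnb4 had 12, 17 and 17 counts in Ad-Cre-GFP and 3, 6 and 3 counts in Ad-GFP (1.53 ± 0.41, edgeR adjusted p = 0.00243). The antisense gene A430018G15Rik covers 1433 of its exon bases and was called higher too, at 0.629 CPM in Ad-Cre-GFP and 0.320 CPM in Ad-GFP (0.99 ± 0.39, edgeR adjusted p = 0.0280), so reads of this pair cannot be told apart. Cacnb1 and Cacnb3 fell, while the direction of Cacnb4 carries that limit. Cacna2d1, the subunit bound by gabapentin, averaged 15.4 CPM in Ad-Cre-GFP and 14.2 CPM in Ad-GFP (0.12 ± 0.07, edgeR adjusted p = 0.124). The L-type gene Cacna1c had 0 counts in Ad-Cre-GFP and 4 in Ad-GFP, and the T-type genes Cacna1g and Cacna1h had 6 and 1 counts in Ad-Cre-GFP and 5 and 0 in Ad-GFP.

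Of the 14 voltage-gated sodium channel genes, 13 had a count and 4 were tested. Of the tested ones, 3 were higher in Ad-Cre-GFP (75%, against 34.0% of all tested genes), Scn3a and Scn2a among them, and 1 was not called. Scn3a and Scn2a passed the low-count filter through Ad-Cre-GFP alone, a choice that favours a difference. The 10 pore genes summed to 4.86 ± 0.279 TPM in Ad-Cre-GFP and 0.732 ± 0.0737 TPM in Ad-GFP, low levels in both groups. Scn3a, a channel of embryonic neurons (chr2:65457118-65567627, minus strand), had 9.82, 11.7 and 10.7 CPM in Ad-Cre-GFP libraries and 0.593, 0.352 and 0.371 CPM in Ad-GFP libraries, which are 13, 9 and 7 raw counts. All Ad-GFP libraries were near the detection limit and far below all Ad-Cre-GFP libraries (log2 fold change 4.60 ± 0.17, edgeR adjusted p = 6.58e-16).

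Scn2a, a channel of central neurons that lies beside Scn3a (chr2:65620771-65767447, plus strand), had 17, 20 and 21 counts in Ad-Cre-GFP and 7, 5 and 4 counts in Ad-GFP (log2 fold change 1.46 ± 0.36, edgeR adjusted p = 0.00119). The other genes of that chromosome 2 cluster were near 0, with Scn1a, Scn7a and Scn9a at 1, 0 and 7 counts in all in Ad-Cre-GFP and at 1, 2 and 4 counts in Ad-GFP. Scn8a had 0 counts in Ad-Cre-GFP and 2 in Ad-GFP. Within the pore genes, Scn3a made up 44.7 ± 1.41% of the level in Ad-Cre-GFP and 12.3 ± 2.55% in Ad-GFP.

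Marker genes of nerve, muscle and other cell types were read beside these channels. The 15 neuron markers summed to 15.3 to 16.3 CPM in Ad-Cre-GFP and 72.2 to 75.7 CPM in Ad-GFP, nearly all of it Tubb3 (14.6 CPM in Ad-Cre-GFP and 73.7 CPM in Ad-GFP), the only one tested, although 12 had a count. Snap25, Gad1 and Gad2 had 0 counts in all 6 libraries, and the neuronal nuclear marker Rbfox3 had 3 counts in Ad-Cre-GFP and 4 in Ad-GFP. The 13 striated muscle markers summed to 4.25 to 5.29 CPM in Ad-Cre-GFP and 1.91 to 2.07 CPM in Ad-GFP, where 8 had a count, 2 were tested and both rose, and Myh1, Actc1, Tnnt3, Myod1 and Myog had no count. Smooth muscle markers summed to 1433 to 1475 CPM in Ad-Cre-GFP and 409 to 512 CPM in Ad-GFP, mostly Acta2, with 4 of 8 tested and all higher, while Myh11 had 14 counts in Ad-Cre-GFP and 7 in Ad-GFP. The 9 endothelial markers summed to 22.2 to 23.5 CPM in Ad-Cre-GFP and 8.30 to 9.90 CPM in Ad-GFP, with 3 tested, all higher, and Tie1, Emcn and Cldn5 at 0. Stromal fibroblast markers summed to 733 to 783 CPM in Ad-Cre-GFP and 2384 to 2561 CPM in Ad-GFP, with 4 tested, all lower. Granulosa and theca markers summed to 9.17 to 9.94 CPM in Ad-Cre-GFP and 26.8 to 31.4 CPM in Ad-GFP, but of 4 tested 2 were higher and 2 lower. Immune markers summed to 6.96 to 7.41 CPM in Ad-Cre-GFP and 11.1 to 13.4 CPM in Ad-GFP, with 2 tested, 1 lower and 1 not called. Schwann cell and glia markers, mostly Mbp, summed to 79.7 to 84.2 CPM in Ad-Cre-GFP and 65.5 to 67.3 CPM in Ad-GFP, with 2 of 3 tested higher. At most 4 genes of each of these lists were tested, and of all tested genes 34.0% were higher in Ad-Cre-GFP and 35.8% lower. Counts this small do not show a shift of a cell type. The part of these marker lists in the channel results was not tested.

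Potassium channels were numerous in the genome and low in these cells, apart from auxiliary subunits and Kcnu1. The 40 voltage-gated potassium pore genes summed to 3.99 ± 0.297 TPM in Ad-Cre-GFP and 2.76 ± 0.0285 TPM in Ad-GFP. Of them, 5 were tested, with 2 higher, 2 lower and 1 not called (80% called, against 69.8% of all tested genes). Kcnf1 passed the low-count filter through Ad-Cre-GFP alone and Kcnh3 through Ad-GFP alone. Kcnf1 encodes an electrically silent subunit that alters the channels it joins (chr12:17172100-17176888, minus strand). It had 68, 55 and 73 counts in Ad-Cre-GFP libraries and 2, 2 and 0 counts in Ad-GFP libraries. It was thus near the detection limit in all Ad-GFP libraries and clearly above it in all Ad-Cre-GFP libraries. The depth-scaled ratio of counts was 37.6, with an interval for counting error of 14.4 to 139 (edgeR adjusted p = 2.71e-10).

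Kcnh7, an ERG-type channel (chr2:62693414-63184287, minus strand), had 6.40, 5.79 and 6.42 CPM in Ad-Cre-GFP and 3.42, 3.40 and 3.39 CPM in Ad-GFP (log2 fold change 0.86 ± 0.11, edgeR adjusted p = 6.44e-07). Gca, on the opposite strand over part of its exons, moved likewise, at 47.5 CPM in Ad-Cre-GFP and 27.6 CPM in Ad-GFP (0.79 ± 0.06, edgeR adjusted p = 3.39e-09), and reads of the pair cannot be told apart. Kcnh3, an ELK-type channel of the forebrain, had 1, 1 and 3 counts in Ad-Cre-GFP and 11, 11 and 12 counts in Ad-GFP. That is 8.87-fold lower in Ad-Cre-GFP after scaling, with an interval of 3.45 to 29.0 (-3.05 ± 0.53, edgeR adjusted p = 2.85e-05). Leaving out Ad-Cre-GFP replicate 3, which holds most of those few counts, gave a log2 fold change of -3.72. Kcnq5, which gives a slow current that restrains excitability, was not called although its groups do not overlap (0.36 ± 0.20, edgeR adjusted p = 0.117).

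Kcnu1 encodes Slo3, an alkalinisation-gated potassium channel known from sperm (chr8:25849623-25937939, plus strand). It had 28.4, 29.0 and 28.0 CPM in Ad-Cre-GFP and 44.5, 46.6 and 48.4 CPM in Ad-GFP, so every Ad-Cre-GFP library was lower (log2 fold change -0.71 ± 0.05, edgeR adjusted p = 1.18e-11). At 19.2 TPM in Ad-Cre-GFP and 32.2 TPM in Ad-GFP it was the highest potassium channel pore gene in both groups, and no annotated gene overlaps its exons. The calcium-activated channels were low. Kcnn4, the intermediate-conductance channel of epithelia and blood cells, averaged 0.638 CPM in Ad-Cre-GFP and 0.361 CPM in Ad-GFP and missed the threshold (0.75 ± 0.36, edgeR adjusted p = 0.0654), although limma-voom called it (adjusted p = 0.0453). Kcnn1 (-0.23 ± 0.21, edgeR adjusted p = 0.346) and the sodium-activated Kcnt2 (-0.13 ± 0.23, edgeR adjusted p = 0.634) were not called, and the big-conductance channel Kcnma1 had 1 count in Ad-Cre-GFP and 0 in Ad-GFP.

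The inward rectifiers and the leak channels each held a gene that was detected well in Ad-Cre-GFP alone. Kcnj4, a strong inward rectifier of heart and brain (chr15:79483714-79505241, minus strand), had 27, 21 and 41 counts in Ad-Cre-GFP and 1, 0 and 2 counts in Ad-GFP. The depth-scaled ratio was 22.8, with an interval of 7.54 to 112 (log2 fold change 4.37 ± 0.59, edgeR adjusted p = 1.35e-06). Its few Ad-GFP counts set that size, since the log2 fold change was 3.72 without Ad-GFP replicate 2 and 5.33 without Ad-GFP replicate 3. Kcnk2, a mechano- and lipid-sensitive leak channel (chr1:189207930-189402273, minus strand), had 28, 23 and 30 counts in Ad-Cre-GFP and 2, 1 and 1 counts in Ad-GFP. Its ratio was 15.5, with an interval of 5.84 to 58.4 (edgeR adjusted p = 1.88e-07). Both genes were within 2 counts of 0 in every Ad-GFP library, and both passed the low-count filter through Ad-Cre-GFP alone.

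Kcnj14, an inward rectifier of motor neurons, had 19, 16 and 12 counts in Ad-Cre-GFP and 3, 6 and 6 counts in Ad-GFP (log2 fold change 1.25 ± 0.40, edgeR adjusted p = 0.00839). DESeq2 did not call it (adjusted p = 0.0562), nor did edgeR once Ad-GFP replicate 1 was left out (adjusted p = 0.0555). The gene shares 1242 bases at 99.11% identity with Gm5522, so its counts are uncertain. Several other potassium channels were at or near 0. Among the leak channels, Kcnk1 had 9 counts in Ad-Cre-GFP and 1 in Ad-GFP, Kcnk5 had 4 and Kcnk6 had 0 in Ad-Cre-GFP, and they had 6 and 1 in Ad-GFP. Kcnj15 had 3 counts and Kcnq1 had 1 count in Ad-Cre-GFP, against 0 for both in Ad-GFP. Kcnh1 had 7 counts in Ad-Cre-GFP and 6 in Ad-GFP, and Kcnj8 had none.

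Among potassium channel auxiliary subunits the Kv beta genes carried the level. Kcnab1, a cytoplasmic beta subunit with the fold of an oxidoreductase (chr3:65109384-65378223, plus strand), had 184, 184 and 185 CPM in Ad-Cre-GFP and 156, 150 and 164 CPM in Ad-GFP. All Ad-Cre-GFP libraries were higher by a small margin (log2 fold change 0.23 ± 0.03, edgeR adjusted p = 2.03e-06). At 54.1 TPM in Ad-Cre-GFP and 47.2 TPM in Ad-GFP it exceeded the sum of all 40 voltage-gated potassium pore genes in both groups. Kcnab3 averaged 4.77 CPM in Ad-Cre-GFP and 3.30 CPM in Ad-GFP and rose (0.52 ± 0.13, edgeR adjusted p = 0.000958). Kcnab2 averaged 1.10 CPM in Ad-Cre-GFP and 2.05 CPM in Ad-GFP and fell (-0.92 ± 0.21, edgeR adjusted p = 0.000643).

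Kcne3, a single-span subunit that holds Kcnq1 open in epithelia, had 4, 2 and 2 counts in Ad-Cre-GFP and 10, 10 and 9 counts in Ad-GFP. It was 4.73-fold lower in Ad-Cre-GFP after scaling, with an interval of 2.11 to 12.0 (log2 fold change -2.18 ± 0.48, edgeR adjusted p = 0.00039), and the pore gene Kcnq1 was itself nearly undetected. Kcnip4 (-0.15 ± 0.36, edgeR adjusted p = 0.715) and Kcnmb4 (0.30 ± 0.28, edgeR adjusted p = 0.353), modifiers of A-type and big-conductance channels, were not called, and Kcnip4 lies in part opposite a more abundant gene. Trpc4ap, which the name rule takes in although the protein is an adaptor of a ubiquitin ligase and no channel, averaged 128 ± 3.67 CPM in Ad-Cre-GFP and 149 ± 3.54 CPM in Ad-GFP (-0.22 ± 0.03, edgeR adjusted p = 4.45e-06).

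**Figure D5:**
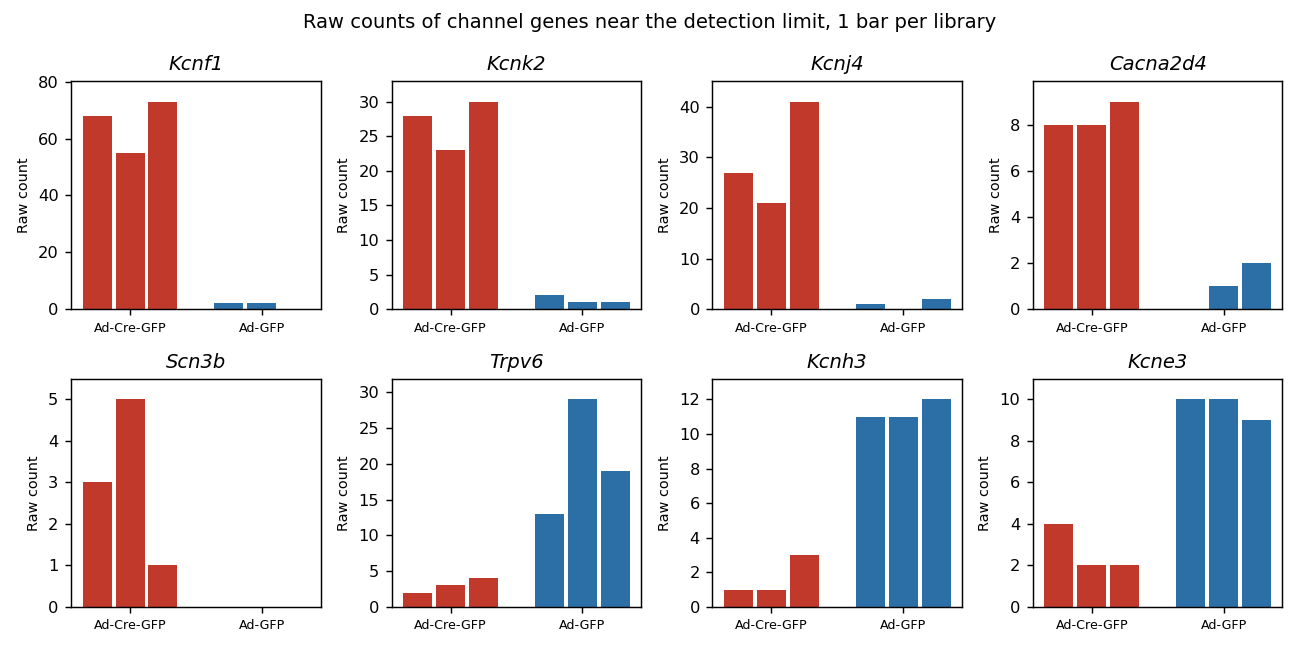
Raw counts of 8 channel genes near the detection limit (y axis from 0), with 1 bar per library and Ad-Cre-GFP left of Ad-GFP. Kcnf1, Kcnk2, Kcnj4, Cacna2d4 and Scn3b have at most 2 counts in every Ad-GFP library, and Trpv6, Kcnh3 and Kcne3 have at most 4 in every Ad-Cre-GFP library.

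Of the 126 channel genes that were not tested, 46 had no count and 80 had at least 1. Of those 80, 60 had 1 to 10 counts over all 6 libraries, 20 had more, and none had more than 13 counts in a library. When edgeR was run without the low-count filter, 3 of them were called. Cacna2d4, a calcium channel auxiliary subunit of photoreceptors, had 8, 8 and 9 counts in Ad-Cre-GFP and 0, 1 and 2 counts in Ad-GFP, a depth-scaled ratio of 6.39 with an interval of 1.95 to 33.1 (edgeR adjusted p = 0.00239). Scn3b, a sodium channel auxiliary subunit, had 3, 5 and 1 counts in Ad-Cre-GFP and 0 counts in all 3 Ad-GFP libraries (edgeR adjusted p = 0.0196). Kcnk12, a leak channel subunit of the THIK type, had 0, 3 and 1 counts in Ad-Cre-GFP and 5, 7 and 6 counts in Ad-GFP (edgeR adjusted p = 0.0046). Between 85 and 91 channel genes had a count in Ad-Cre-GFP libraries and between 74 and 79 in the shallower Ad-GFP libraries.

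Pumps, exchangers and other channels that work beside these genes were read from 6 lists of 134 genes, of which 77 were tested. Of those, 18 were higher in Ad-Cre-GFP (23.4%, against 34.0% of all tested genes), 37 were lower (48.1%, against 35.8%) and 22 were not called, with a median log2 fold change of -0.16, against -0.01 over all tested genes. Over the 6 lists taken singly, 66.7% to 77.8% of the tested genes were called, against 69.8% of all tested genes. In the list of store-operated and intracellular calcium channels 3 rose, 7 fell and 5 were not called. Stim1, the calcium sensor of the endoplasmic reticulum, averaged 143 ± 3.19 CPM in Ad-Cre-GFP and 66.6 ± 2.88 CPM in Ad-GFP (log2 fold change 1.10 ± 0.04, edgeR adjusted p = 5.61e-17). Pkd2, a cation channel of cilia and endoplasmic reticulum, averaged 59.1 CPM in Ad-Cre-GFP and 138 CPM in Ad-GFP (-1.22 ± 0.05, edgeR adjusted p = 4.14e-13). Itpr3, an IP3-gated calcium release channel, averaged 97.4 CPM in Ad-Cre-GFP and 148 CPM in Ad-GFP (-0.60 ± 0.04, edgeR adjusted p = 3.48e-12).

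Pump and uniporter genes stand in 2 short lists. Of the sodium-potassium pump subunits none rose, 4 fell and 2 were not called. Atp1b1, the beta subunit that takes the pump to the membrane, averaged 47.7 ± 0.940 CPM in Ad-Cre-GFP and 757 ± 74.6 CPM in Ad-GFP (log2 fold change -3.99 ± 0.08, edgeR adjusted p = 2.57e-09). Fxyd3, a pump regulator, averaged 0.978 CPM in Ad-Cre-GFP and 5.33 CPM in Ad-GFP (-2.43 ± 0.16, edgeR adjusted p = 1.28e-11). Of the calcium pumps, exchangers and uniporter genes 2 rose, 6 fell and 3 were not called. Atp2b4, a calcium pump of the cell surface, averaged 45.7 CPM in Ad-Cre-GFP and 134 CPM in Ad-GFP (-1.56 ± 0.04, edgeR adjusted p = 1.17e-18), and Mcub, an inhibitory uniporter subunit, averaged 7.76 CPM in Ad-Cre-GFP and 23.1 CPM in Ad-GFP (-1.58 ± 0.08, edgeR adjusted p = 6.16e-14). Micu2, a gatekeeper of that uniporter, averaged 46.6 CPM in Ad-Cre-GFP and 64.3 CPM in Ad-GFP (-0.47 ± 0.04, edgeR adjusted p = 4.96e-10).

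Anion channels outside the CLC family gave 4 higher, 8 lower and 5 not called. Ano1, a calcium-activated chloride channel, averaged 63.0 CPM in Ad-Cre-GFP and 125 CPM in Ad-GFP (log2 fold change -0.99 ± 0.04, edgeR adjusted p = 1.08e-15). Clic1 (-0.69 ± 0.03, edgeR adjusted p = 2.26e-14) and Clic4 (-0.46 ± 0.03, edgeR adjusted p = 2.48e-12) fell too. Other mechanically gated and sodium leak channels gave 2 higher, 5 lower and 2 not called. Tmem63a, an osmotically gated channel, averaged 78.1 CPM in Ad-Cre-GFP and 149 CPM in Ad-GFP (-0.94 ± 0.03, edgeR adjusted p = 1.69e-16), and Tmc6, a relative of the hair cell channel, averaged 32.2 CPM in Ad-Cre-GFP and 77.3 CPM in Ad-GFP (-1.27 ± 0.04, edgeR adjusted p = 7.57e-17). The sodium leak channel Nalcn had 65 counts in all in Ad-Cre-GFP and 3 in Ad-GFP (log2 fold change 3.92 ± 0.54, edgeR adjusted p = 1.13e-06, and 4.68 without Ad-GFP replicate 2).

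Of the channel partners and regulators 7 rose, 7 fell and 5 were not called. Fgf13, an intracellular factor that binds voltage-gated sodium channels, averaged 18.4 ± 1.07 CPM in Ad-Cre-GFP and 3.66 ± 0.331 CPM in Ad-GFP (log2 fold change 2.32 ± 0.09, edgeR adjusted p = 1.2e-15). Cav1, the caveolar scaffold, averaged 773 CPM in Ad-Cre-GFP and 267 CPM in Ad-GFP (1.53 ± 0.03, edgeR adjusted p = 7.72e-21). Sestd1, a binding partner of TRPC channels, averaged 21.8 CPM in Ad-Cre-GFP and 39.8 CPM in Ad-GFP (-0.87 ± 0.05, edgeR adjusted p = 9.57e-13).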

How the data were processed

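Poly(A) RNA of mouse ovarian surface epithelial cells was measured in 3 Ad-Cre-GFP and 3 Ad-GFP libraries, 1 week after transduction per the labels. The authors deposited whole-number read counts per gene, not normalized, in 1 table. GRCm38 is the build in the submitters' processing notes, which also list sleuth 0.30.1 and kallisto 0.46.2. How reads were counted, with or without strand and with what rule for multiple matches, is not given in the sources. Of 48440 gene IDs, 48058 matched GENCODE mouse release 21 (GRCm38), which gave symbols, gene type, coordinates and the exon lengths used for TPM.

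Counts were tested in R 4.3.3 with edgeR 4.0.16 (quasi-likelihood test, robust, TMM scaling, filterByExpr on group), Ad-Cre-GFP over Ad-GFP, over all 14811 genes that passed, with Benjamini-Hochberg adjustment and a threshold of 0.05. An SE is that of the log2 fold change, as its size over the square root of F. Ratios of low counts carry 95% exact binomial intervals, which cover counting error only. The fit was also tested on simulated counts, but the outcome is not given here and lends no weight to the p-values. Genes with fewer than about 10 counts in 3 libraries were left out. Alternatives were DESeq2 1.42.0, limma-voom (limma 3.58.1), other scalings and filters, a block for the replicate number, and fits without each library in turn.

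The channel genes, the lists and the tests were chosen with earlier results of these data known. Genes named are Lats1 and Lats2, called channel genes past a 2-fold change with separate groups and 1 CPM, the 15 with the highest TPM, a set list of channels, and up to 3 called genes with the lowest adjusted p of each list of related genes. The remaining tested channel genes were added for completeness, as were untested ones called without the low-count filter, and Ostm1, Ctu2, Tssc4, Gca, Polr2h, Fam131b and A430018G15Rik were added after their values were seen. Each library was compared with the others of its group, and none was a copy of another. A few genes that this rule takes in are not reported here, though they stand in the counts and sums.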

Additional observations from a re-analysis of the deposited data

How the results depend on the processing

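Of the 31 called channel genes, 29 kept their direction and call in all 13 alternatives in which they were tested, and Trpc1 and Kcnj14 lost the call as given with their values in the report. With the settings of the report edgeR called 10344 of 14811 genes, with 16 of 43 channel genes higher in Ad-Cre-GFP and 15 lower. DESeq2, on the same 14811 genes and 43 channel genes, called 9351 genes, 14 channel genes higher and 15 lower. Without a low-count filter edgeR tested far more, 27006 genes and 123 channel genes. It called 10854 of those genes, with 18 channel genes higher and 16 lower, so these counts have a larger base than those of the report. Restricting to genes with a mean of at least 1 CPM left 30 channel genes, and the number past a 2-fold change dropped to 6 higher and 2 lower, since fewer genes were tested. With each library left out in turn, 15032 to 15209 genes and 43 to 44 channel genes were tested. Those fits called 9932 to 10124 genes, with 15 to 16 channel genes higher and 15 to 17 lower. Of the channel genes, 10 to 11 were at least 2-fold higher and 4 to 8 at least 2-fold lower. The 8 came without Ad-GFP replicate 2, and the cause was not tested. For related genes these fits called 15 to 20 higher and 36 to 38 lower. The direction turned for some genes that were never called: with 1 library left out, the log2 fold change of Kcnip4 ran from -0.432 to 0.139 (above 0 without Ad-Cre-GFP replicate 3 and, at 0.0011, without Ad-GFP replicate 1) and that of Clcn1 from -0.0305 (without Ad-Cre-GFP replicate 1) to 0.134. Clcn5 was called with upper-quartile scaling and without Ad-GFP replicate 2 (edgeR adjusted p = 0.0494 and 0.0286). The deviations of same-numbered libraries correlated at 0.0488, 0.0510 and 0.00502, so no shared effect of the replicate number was seen. Such correlations cannot show whether same-numbered libraries came from a common culture or animal. With a replicate block 10478 genes were called, 16 channel genes higher and 15 lower, and no call of a channel gene changed. Depth limits the genes under about 0.377 CPM, most of which were not tested.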
